A study of Mus musculus with 10 samples.

Results

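Apoe and 7 further genes of cholesterol efflux were followed in RNA from mouse bone marrow: Abca1, Abcg1, Nr1h3, Nr1h2, Lpl, Pltp and Mylip. They were taken by gene symbol, and all 8 were found among the 55367 genes of the deposited count table and passed the filter on low counts. The libraries came from bone marrow cells, labelled BMMC, of mice that drank regular water (5 libraries) or water with 1% α-ketoglutarate (α-KG; 5 libraries), and each library is named here by its group and a number that pairs nothing. α-KG, a metabolite of the tricarboxylic acid cycle, is consumed by many dioxygenases, and the series title names myeloproliferative neoplasms, in which the marrow makes too many myeloid cells. The sources used here do not give strain, genotype, age, sex or how long the mice drank α-KG. Nor do they tie each library to a separate animal, and p-values thus measure only how these libraries vary, which may be technical.

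Liver X receptors (LXR) are nuclear receptors that sense oxysterols, oxidised forms of cholesterol, and act as heterodimers with retinoid X receptors; Nr1h3 encodes LXRα, which is rich in macrophages, and Nr1h2 encodes LXRβ, which is widely expressed. Their target genes move cholesterol out of the cell: ABCA1 and ABCG1 are pumps that pass it to lipoproteins, apolipoprotein E (Apoe) is a secreted carrier, and lipoprotein lipase (Lpl) and phospholipid transfer protein (Pltp) remodel lipoproteins outside the cell. Mylip encodes IDOL, a ubiquitin ligase that marks lipoprotein receptors for degradation and so lowers uptake. In mouse marrow, loss of Abca1 with Abcg1, or of Apoe, is known to expand myeloid progenitor cells.

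Total counts per library ran from 14291364 to 22490118, and 15126 genes were tested with edgeR. Of these, 2.73% were called changed at an adjusted p under 0.05, 2.39% higher and 0.344% lower in α-KG, and at an unadjusted p under 0.05 the share was 27.8%. The groups did not overlap for 5.65% of genes, 3.64% higher and 2.01% lower in α-KG. Markers of monocytes, macrophages, T and NK cells and adipocytes moved with the groups: the summed level of 15 monocyte genes was 1021 to 1284 CPM (counts scaled to 1e+06 per library after normalisation) in water and 1333 to 2437 in α-KG, and that of 15 macrophage genes 94.4 to 168 and 163 to 291. The sum of 11 T and NK cell genes was 20.3 to 29.0 CPM in water and 22.8 to 71.7 in α-KG, and that of 9 adipocyte genes 10.7 to 18.01 and 13.4 to 24.03. None of the 14 marker lists passed an exact two-sided permutation test after adjustment (smallest adjusted p = 0.0833), and these 4 had an unadjusted p under 0.05. The structural 7SL RNA (Rn7s1 and Rn7s2) also moved with the groups, with 7.56 to 24.2% of counts in water and 23.97 to 31.0% in α-KG. With scaling that left out structural RNAs and histone genes, the log2 fold change of Apoe was 1.07 (edgeR adjusted p = 0.0197), beside 1.06 with all genes. Transcripts of Xist and of the Y-linked gene Ddx3y were both present in every library. In RNA of whole marrow, a change in the number of cells of a type and a change in RNA per cell cannot be told apart.

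The promoters of 3 genes are shown because their levels differed in how they varied with α-KG: Apoe rose, Abca1 was uneven between libraries, and Mylip leaned the other way without passing the test. Each is the 250 bases before a RefSeq start site on build GRCm38.p6, 5′ to 3′ on the strand of the gene, which is the minus strand for Apoe (chr7:19699189-19699438) and Abca1 (chr4:53159896-53160145) and the plus strand for Mylip (chr13:45389492-45389741). RefSeq lists 3 start sites for Apoe, and the most upstream is used. Capitals mark the matches described after the sequences.
Apoe: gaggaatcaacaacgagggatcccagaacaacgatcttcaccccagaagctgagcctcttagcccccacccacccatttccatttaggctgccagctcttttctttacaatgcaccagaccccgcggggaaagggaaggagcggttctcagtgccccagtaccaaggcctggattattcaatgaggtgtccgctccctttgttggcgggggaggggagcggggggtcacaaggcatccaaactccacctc
Abca1: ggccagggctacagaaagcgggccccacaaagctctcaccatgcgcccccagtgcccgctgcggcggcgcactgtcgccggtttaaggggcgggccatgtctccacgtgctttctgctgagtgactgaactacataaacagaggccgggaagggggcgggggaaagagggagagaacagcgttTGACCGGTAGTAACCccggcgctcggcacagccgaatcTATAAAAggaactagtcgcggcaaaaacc
Mylip: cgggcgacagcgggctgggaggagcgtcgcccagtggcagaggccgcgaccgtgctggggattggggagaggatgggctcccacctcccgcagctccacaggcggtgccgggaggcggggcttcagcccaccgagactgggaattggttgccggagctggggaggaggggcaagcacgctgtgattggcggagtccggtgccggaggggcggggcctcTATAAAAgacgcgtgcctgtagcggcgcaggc
The capitals in the Abca1 promoter, from position -67 to -53 before the start, are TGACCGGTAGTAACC, a match to TGACCGNNNNTAACC, the form of LXR element known from this promoter. That motif was chosen after the promoter had been read. It was found on either strand in 4 of 32851 RefSeq promoter windows of the same length (0.0122%). A perfect direct repeat of the receptor core site with 4 bases between, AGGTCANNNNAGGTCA, was in 0.0152% of windows and in none of the members' windows. The single core site AGGTCA, which also lies within each perfect repeat, was in 14.0% of windows and again in none of theirs. The other capitals are TATA boxes, TATAAAA, at -29 to -23 in Abca1 and -32 to -26 in Mylip. TATAAAA was in 4.98% of all windows on either strand, and 3 members had it, since a further start site of Apoe has it on the opposite strand. Nr1h2 held 3 copies of CCGGAAG, the core of ETS factor sites, on either strand, and 6.91% of windows had at least 1. Windows were found for 6 of the 8 genes.

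Levels per length set the genes apart before any comparison of the groups. In CPM per kilobase of merged exon, Apoe averaged 24.2 over the 10 libraries, Nr1h2 17.6 and Mylip 13.6, against 3.67 for Abcg1, 1.84 for Pltp, 1.46 for Abca1, 0.671 for Nr1h3 and 0.532 for Lpl. Neighbours in this order were apart in all 10 libraries for Nr1h2 over Mylip, Mylip over Abcg1, Abcg1 over Pltp and Abca1 over Nr1h3. Apoe lay above Nr1h2 in 5 of 5 α-KG libraries and in 1 of 5 water libraries, so the gene with the highest level per length differed between most libraries of the groups. Pltp exceeded Abca1 in 7 of 10 libraries and Nr1h3 exceeded Lpl in 7 of 10, so neither pair has a firm order. LXRβ was the more abundant LXR transcript throughout: the ratio of Nr1h2 to Nr1h3 per kilobase was 37.6 to 71.6 in water and 10.4 to 32.2 in α-KG.

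**Figure D1:**
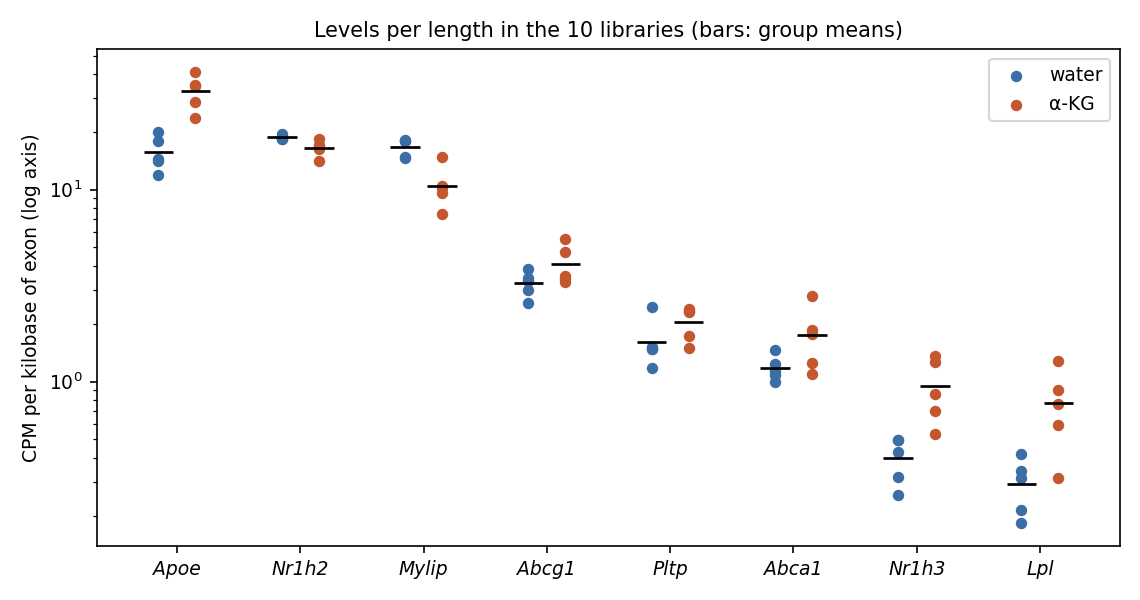
Levels of the 8 genes in CPM per kilobase of exon (log axis), 1 point per library, water in blue and α-KG in orange, with bars at group means. Apoe, Nr1h2 and Mylip lie above the other 5 genes, and Apoe passes Nr1h2 in all 5 α-KG libraries.

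With edgeR, 1 of the 8 genes was called, Apoe, which was higher in α-KG, beside 2.73% of all genes tested. The groups did not overlap for 2 of the 8, Apoe and Nr1h3, both higher, beside 5.65% of all genes. Nr1h3, Lpl and Mylip missed the threshold narrowly, with adjusted p of 0.0506 to 0.0523, and Abca1, Abcg1, Pltp and Nr1h2 were further from it. At an unadjusted p under 0.05 the count was 5 of 8, beside 27.8% of all genes tested. The log2 fold changes were above 0 for 6 of the 8, with a median of 0.45, where 51.7% of all genes tested were above 0 with a median of 0.02.

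Among the receptors, Nr1h3 (LXRα; chromosome 2, 91184061 to 91202834, GRCm38) was at 0.804, 1.24, 1.24, 1.08 and 0.643 CPM in water 1 to 5 and at 3.19, 1.33, 1.77, 3.42 and 2.16 in α-KG 1 to 5. Every α-KG library lay above every water library, though α-KG 2 only just. The log2 fold change was 1.22 ± 0.30 (SE, n = 5 per group; edgeR adjusted p = 0.0513), and these levels rest on 9 to 82 counts per library. Nr1h2 (LXRβ; chromosome 7, 44549616 to 44553951) was nearly constant in water, at 61.2 to 65.8 CPM, and was at 56.7, 57.2, 54.9, 47.5 and 61.5 CPM in α-KG 1 to 5. Of the α-KG libraries, 4 lay below the lowest water library and α-KG 5 lay among them. Its log2 fold change was -0.18 ± 0.10 with a 95% interval of -0.40 to 0.05 (SE, n = 5 per group; edgeR adjusted p = 0.277).

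Apoe (chromosome 7, 19696109 to 19699188), the secreted carrier, was at 25.5, 30.8, 42.7, 30.0 and 38.2 CPM in water 1 to 5. In α-KG 1 to 5 it was at 61.4, 50.5, 75.4, 87.9 and 74.2 CPM. The groups did not overlap, and the nearest pair was water 3, the highest of its group, and α-KG 2, the lowest of its group. Means were 33.5 ± 6.90 and 69.9 ± 14.3 CPM (SD, n = 5), a fitted fold of 2.09 with a 95% interval of 1.60 to 2.72 (log2 fold change 1.06 ± 0.18 SE, edgeR adjusted p = 0.0172). The call was lost without water 1, water 2, water 4, α-KG 3 or α-KG 4, at edgeR adjusted p of 0.0560 to 0.0825. In these settings no gene tested was called, save 37 of 15452 without α-KG 3. The log2 fold change of Apoe stayed at 0.97 to 1.17 with any library left out. With the monocyte list mean as a covariate it was 0.21 ± 0.23 and with the macrophage mean 0.35 ± 0.26 (SE), and neither was called (edgeR adjusted p = 1.00 in each). No gene tested was called in either fit. Both means moved with the groups, so these fits cannot tell the covariate and α-KG apart.

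The efflux pumps differed from Apoe in that their groups overlapped. Abca1 (chromosome 4, 53030787 to 53159895) was at 12.9, 11.7, 15.1, 10.3 and 11.2 CPM in water 1 to 5 and at 28.8, 11.4, 18.4, 19.2 and 12.9 CPM in α-KG 1 to 5. α-KG 1 stood well above all other libraries, and α-KG 2 and α-KG 5 lay within the range of water. The log2 fold change was 0.57 ± 0.22 (SE, n = 5 per group; edgeR adjusted p = 0.133). It was 0.32 without α-KG 1, and 0.70 without α-KG 2, where Abca1 was called (adjusted p = 0.0393). Abcg1 (chromosome 17, 31057675 to 31117988) was at 25.2, 21.9, 28.2, 24.4 and 18.7 CPM in water 1 to 5 and 40.2, 24.1, 25.0, 34.5 and 25.8 in α-KG 1 to 5. The same library, α-KG 1, was the highest, and 3 of the 5 α-KG libraries lay within the range of water. Its log2 fold change was 0.34 ± 0.17 with a 95% interval of -0.02 to 0.70 (SE, n = 5 per group; edgeR adjusted p = 0.201), and 0.20 without α-KG 1.

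Of the genes that remodel lipoproteins, Lpl (chromosome 8, 68880491 to 68907448) had the largest fitted difference of the 8. It was at 1.92, 3.28, 4.37, 2.25 and 3.57 CPM in water 1 to 5 and at 13.4, 3.31, 8.03, 9.50 and 6.19 CPM in α-KG 1 to 5. All α-KG libraries except α-KG 2 lay above all water libraries. The log2 fold change was 1.40 ± 0.34 (SE, n = 5 per group; edgeR adjusted p = 0.0506), with 1.12 without α-KG 1. Pltp (chromosome 2, 164839518 to 164857711) was at 2.999, 3.77, 6.25, 3.89 and 3.79 CPM in water and at 6.14, 4.44, 3.84, 5.99 and 5.90 in α-KG. Water 3 had the highest value of all 10 libraries, and the groups overlapped (log2 fold change 0.34 ± 0.22 SE, n = 5 per group, edgeR adjusted p = 0.308). Without water 3 the log2 fold change was 0.55 (adjusted p = 0.0947). The lysosomal gene Ctsa overlaps Pltp on the opposite strand and rose by 0.61 ± 0.15 on the log2 scale (edgeR adjusted p = 0.0483). Whether counting used strand is not stated in the sources used here, so reads from where the genes overlap may have been assigned to either. Deposited Pltp counts were not whole, such as 97.29 in water 1, and how reads were shared out is not stated.

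Mylip (chromosome 13, 45389742 to 45412022), the ligase that removes lipoprotein receptors, had a log2 fold change of the opposite sign to Apoe, Abca1, Abcg1, Lpl and Pltp, without passing the test. It was at 47.8, 58.1, 47.0, 57.9 and 58.8 CPM in water 1 to 5 and at 30.9, 47.8, 24.2, 33.2 and 33.8 CPM in α-KG 1 to 5. Of the α-KG libraries, 4 lay below the lowest water library, and α-KG 2 lay among them. The log2 fold change was -0.67 ± 0.16 (SE, n = 5 per group; edgeR adjusted p = 0.0523), a fitted level of 0.631 times that in water with a 95% interval of 0.493 to 0.807. It stayed at -0.82 to -0.56 with any library left out. Per kilobase, the ratio of Apoe to Mylip was 0.785 to 1.38 in water and 1.60 to 4.71 in α-KG, without overlap. Apoe by itself did not overlap and Mylip leaned the other way, so this separation largely follows from their separate values.

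**Figure D2:**
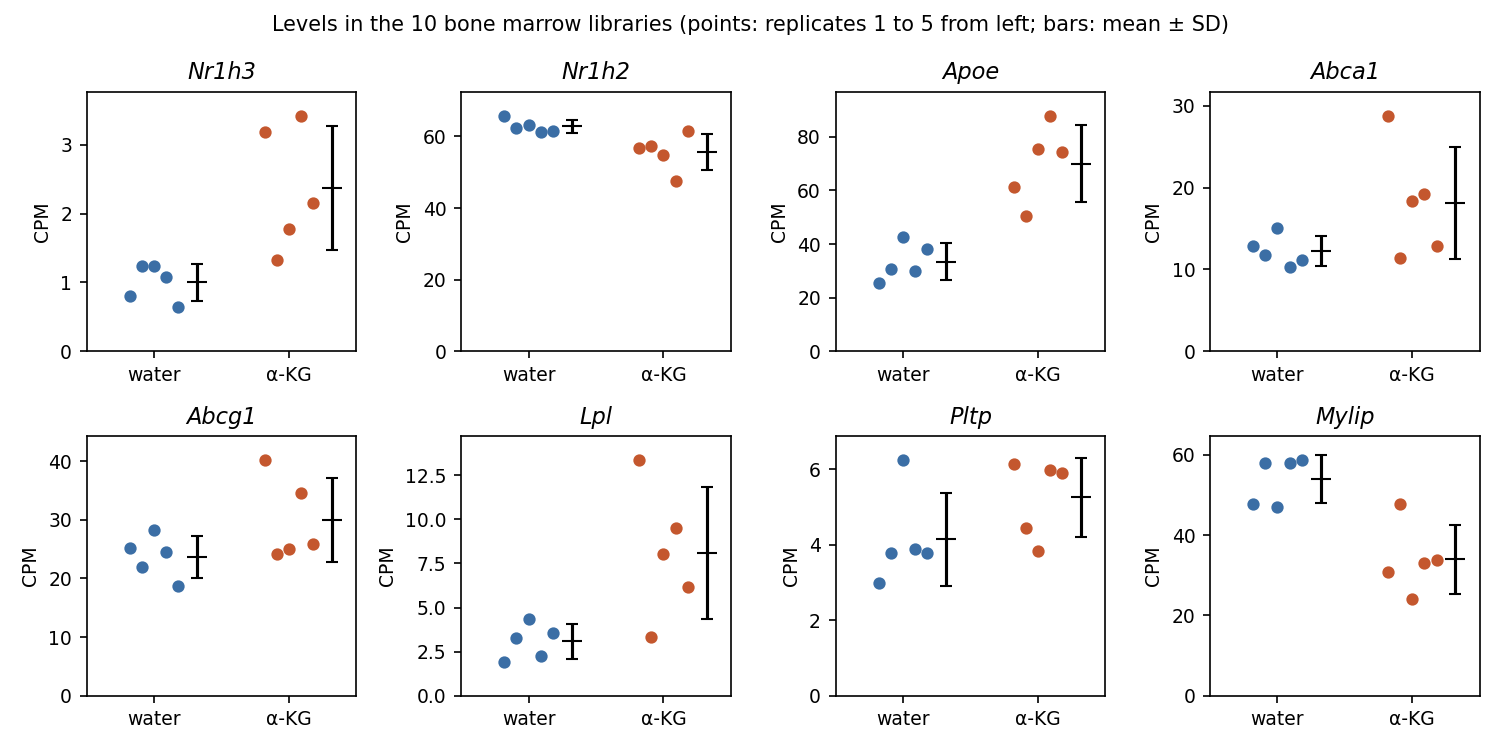
CPM of each gene in the 5 water (blue) and 5 α-KG (orange) libraries, replicates 1 to 5 from left to right, with black bars for mean ± SD; each axis starts at 0. Apoe and Nr1h3 are separated by group, and α-KG 2 is the α-KG library nearest to water for Apoe, Nr1h3, Lpl and Mylip.

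How many of the 8 genes passed depended on single libraries. So did the count over all genes tested. The count of members was 5 without α-KG 2 (Apoe, Nr1h3, Abca1, Lpl and Mylip), beside 2683 of 15384 genes tested. It was 4 without water 3 (the same genes without Abca1), beside 632 of 15236. It was 0 with edgeR without water 1, water 2, water 4, α-KG 3 or α-KG 4, with 4 to 6 of the 8 still at an unadjusted p under 0.05. Over all genes tested it was 0 there too, save 37 of 15452 without α-KG 3. DESeq2 called 4 with all libraries (Apoe, Nr1h3, Lpl and Mylip), beside 1657 of 15951 genes tested. Water 3 and α-KG 2 were also the nearest to the other group in the monocyte markers. Their mean on the log2(CPM + 1) scale was 5.45 in water 3, against 5.0001 to 5.16 in the other water libraries. It was 5.47 in α-KG 2, against 6.07 to 6.42 in the other α-KG libraries.

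**Figure D3:**
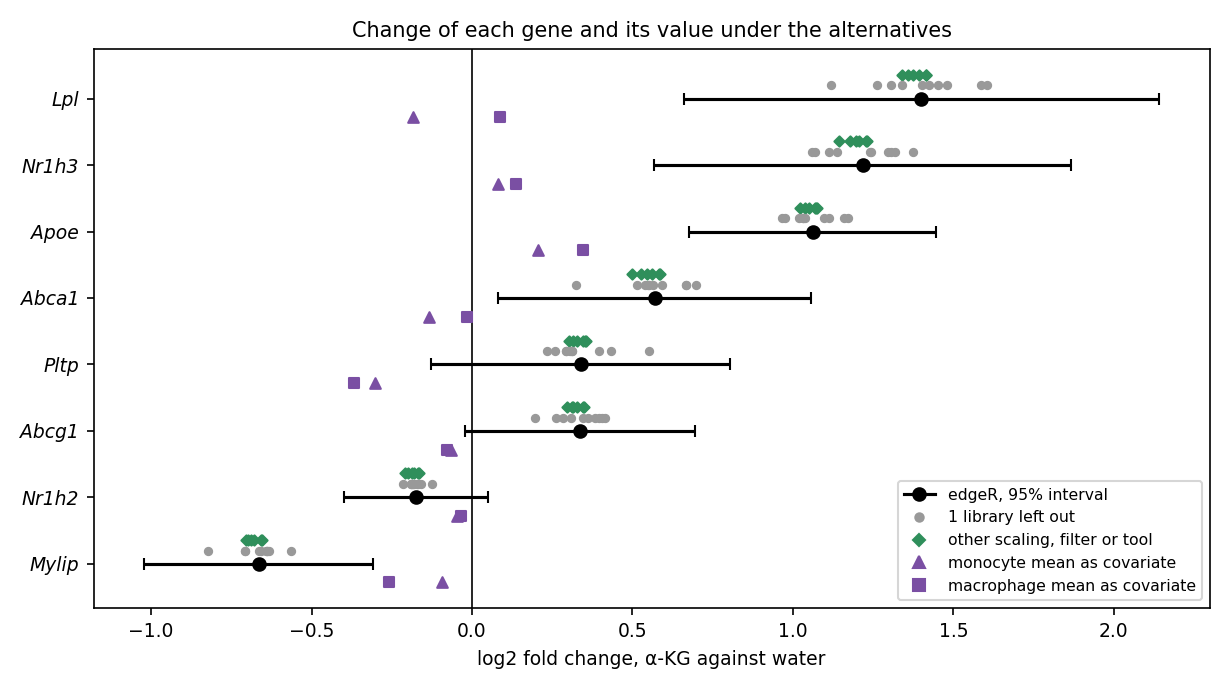
Log2 fold change of each gene, α-KG against water (black, with its 95% interval), beside its value with 1 library left out (grey), with another scaling, filter or tool (green), or with the monocyte or macrophage list mean as a covariate (purple). The grey and green values keep the sign of the black ones for all 8 genes, and the purple values are smaller in size except for Pltp with the macrophage mean, at -0.37.

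The members fell into different patterns across libraries when set beside the marker lists. Correlations here are Pearson's r of log2 values over 10 libraries that share their total RNA and scaling, given as descriptions. Apoe followed the monocyte mean (r = 0.97, and 0.87 for deviations from the group means) and the macrophage mean (0.95 and 0.81), and also the T and NK cell mean (0.90 and 0.79) and, less closely, the adipocyte mean (0.81 and 0.50). Nr1h3 (0.90, and 0.69 for deviations) and Lpl (0.90 and 0.76) also ran with the monocyte mean, and Mylip went against it (-0.90 and -0.67). With the macrophage mean, r was 0.92 for Nr1h3, 0.89 for Lpl and -0.85 for Mylip. Abca1 was less tied to the monocyte mean (0.71) and went against the erythroid mean (-0.92, and -0.91 for deviations from the group means), as did Abcg1 (-0.78 and -0.72). The erythroid mean was 7.53 in α-KG 1, the library highest in both pumps, and 9.21 to 10.3 in the other 9. Adipocytes are another known source of Lpl. Their list mean was 0.735 ± 0.0977 in water (SD, n = 5) and 0.960 ± 0.134 in α-KG. For Lpl, r with it was 0.87 (0.70 for deviations from the group means), nearer to 0 than with the monocyte mean. Values of r for Abca1 (0.88) and Mylip (-0.92) were further from 0 than with the monocyte mean. Lpl also ran with the endothelial mean (0.89, and 0.87 for deviations) and the stromal mean (0.74 and 0.84). Most of the adipocyte list's sum came from Lipe (means of 9.84 and 14.0 CPM) and Fabp4 (2.08 and 3.96 CPM). The defining markers Plin1 and Cidec were at no more than 0.156 and 0.199 CPM in any library, and Adipoq was at 0.141 to 0.462 CPM in water and 0.380 to 1.09 in α-KG. The part of any of these cell types in the results was not tested. The covariate fits cannot test it, since the monocyte mean separated the groups (at most 5.45 in water, at least 5.47 in α-KG). The macrophage mean nearly did (at most 3.08 in water, at least 3.06 in α-KG).

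**Figure D4:**
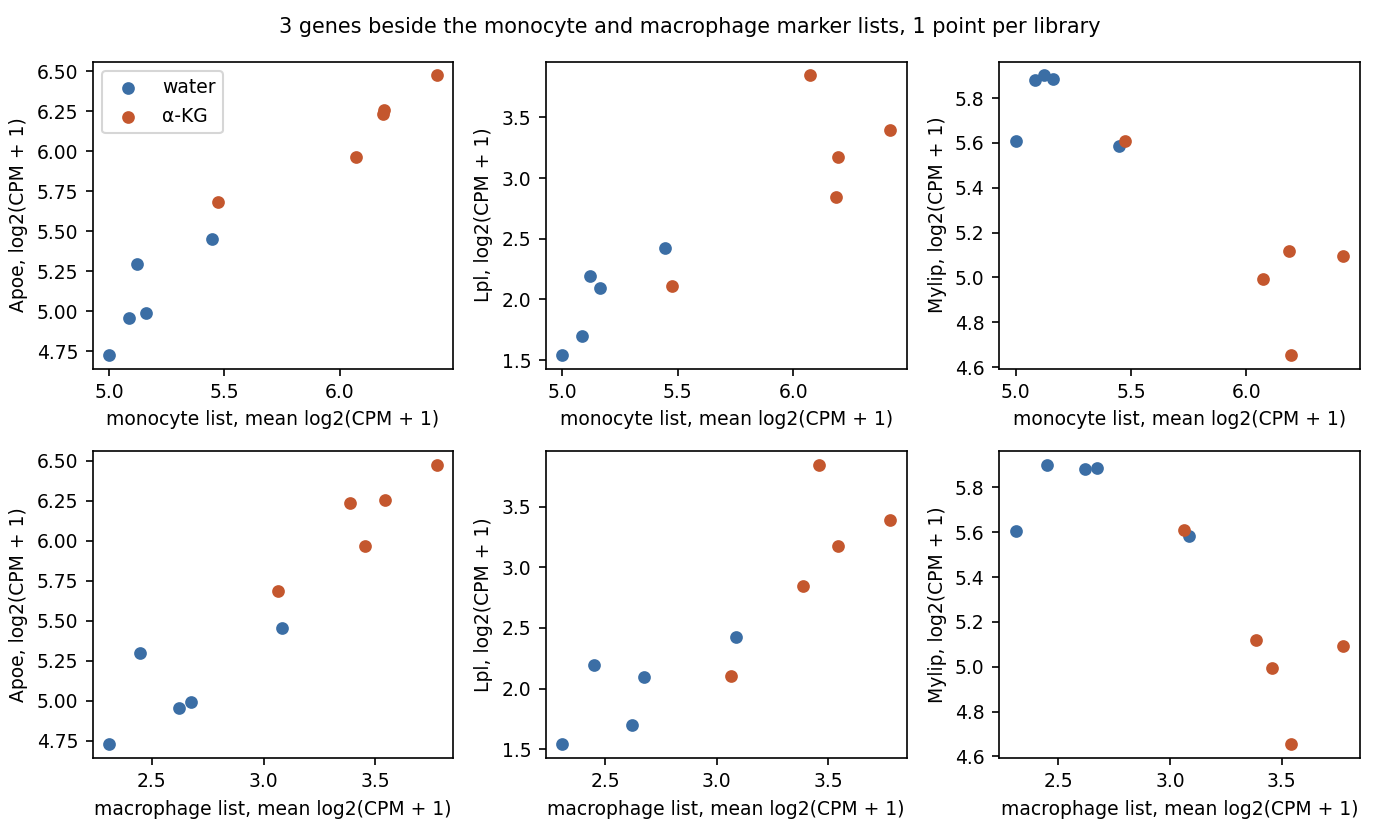
Apoe, Lpl and Mylip on the log2(CPM + 1) scale against the mean of the monocyte (top) and macrophage (bottom) lists, 1 point per library. Apoe runs along both means, Mylip runs against them, and water 3 and α-KG 2 lie next to each other at monocyte means of 5.45 and 5.47.

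The genes most like Apoe over the 10 libraries, out of 11320 compared by Pearson's r, were Ccr2 (r = 0.98), Ms4a4c (0.97), Abca9 (0.97), Cd68 (0.97), Cdc42bpb (0.97), Lrp1 (0.97), Tifab (0.97), Olfm1 (0.97), Rgs3 (0.97) and Slfn5 (0.97). Ccr2, Ms4a4c and Cd68 are in the monocyte or macrophage lists used here. For deviations from the group means, r with Apoe was 0.83 to 0.95, highest for Cd68. Their log2 fold changes were 0.76 for Rgs3 to 1.75 for Ms4a4c, a direction largely fixed by choosing genes that vary with Apoe over both groups. No other of the 8 efflux genes was among them. Within the 8, r with Apoe is given with r for deviations from the group means in brackets. It was 0.87 (0.67) for Lpl, 0.82 (0.39) for Nr1h3, 0.67 (0.58) for Pltp, 0.61 (0.27) for Abca1 and 0.52 (0.11) for Abcg1. For Nr1h2 it was -0.78 (-0.46) and for Mylip -0.84 (-0.43). Between the pumps Abca1 and Abcg1, r was 0.86 (0.80 for deviations from the group means), and between Abca1 and Lpl it was 0.87 (0.82).

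Of the partners and coregulators of LXR, 2 of 15 tested genes rose and none fell, beside 2.39% and 0.344% of all genes tested. Their median log2 fold change was 0.08. Rxra, which encodes a retinoid X receptor that pairs with LXR, was at 6.14 ± 1.63 in water and 14.2 ± 3.24 CPM without overlap (SD, n = 5; log2 fold change 1.21 ± 0.20 SE, edgeR adjusted p = 0.0172). Its relative Rxrb was at 36.7 ± 2.68 and 35.0 ± 5.53 CPM (SD, n = 5), a log2 fold change of -0.07. The difference between Rxra and Rxrb was not tested. Pparg is a nuclear receptor gene known to lie upstream of Nr1h3 in macrophages. Its log2 fold change was 1.01 ± 0.29 (SE, edgeR adjusted p = 0.0690).

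Other known LXR targets did not share 1 direction: 2 of 11 tested genes rose and none fell, beside 2.39% and 0.344% of all genes. Of the 11 log2 fold changes, 8 were above 0, with a median of 0.47, beside 51.7% of all genes tested. Cd5l, a macrophage gene whose product limits apoptosis, was at 1.88 ± 0.334 in water and 3.90 ± 0.928 CPM in α-KG without overlap (SD, n = 5; log2 fold change 1.04 ± 0.21 SE, edgeR adjusted p = 0.0278). Arl4c, a small GTPase gene of cholesterol transport, rose by 0.73 ± 0.18 on the log2 scale (adjusted p = 0.0492). The lipogenic targets did not pass the test, with log2 fold changes of 0.01 for Srebf1, 0.47 for Scd1, -0.16 for Scd2 and 0.20 for Fasn (edgeR adjusted p = 0.976, 0.422, 0.682 and 0.382). Lpcat3, a phospholipid remodelling enzyme gene, was at -0.83 ± 0.26 (adjusted p = 0.0825), on the same side as Mylip. On the other side, Smpdl3a had a log2 fold change of 0.48 ± 0.12 without overlap (SE, edgeR adjusted p = 0.0584). That of Mertk was 0.94 ± 0.25 (SE, edgeR adjusted p = 0.0626), and neither gene was called. Abcg5, Abcg8, Apoc1, Apoc4, Mlxipl and Cyp7a1 were among the genes below the filter.

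Of 13 other genes of apolipoproteins or their receptor, 10 were below the filter. Apoc2, Clu and Apobr did not pass the test, with log2 fold changes of 1.11 ± 0.39, 0.62 ± 0.29 and 0.21 ± 0.18 (SE; edgeR adjusted p = 0.105, 0.190 and 0.446). The log2 fold change of Clu was 0.30 without α-KG 1, and Apoc2 was called without α-KG 2, at 1.32 (edgeR adjusted p = 0.0303). Apoc2, the cofactor of lipoprotein lipase, was at 0.711 to 1.22 CPM in water and 0.839 to 3.61 in α-KG. Genes beside Apoe on chromosome 7 did not pass either: of 9, 5 were tested and 0 called by edgeR, with 1 at an unadjusted p under 0.05 (Apoc2). Over all genes tested, these shares were 2.73% and 27.8%. Tomm40, its neighbour, was at 17.4 ± 4.31 and 17.3 ± 1.55 CPM (SD, n = 5), a log2 fold change of -0.01 with a standard error of 0.16. For Bcl3 the log2 fold change was 0.34 (edgeR adjusted p = 0.203).

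Among receptors that take up lipoproteins, 2 of 12 tested genes rose and none fell, beside 2.39% and 0.344% of all genes tested. Their median log2 fold change was 0.21. Lrp1, a large receptor that binds apolipoprotein E, was at 71.7 ± 9.21 in water and 165 ± 40.1 CPM without overlap (SD, n = 5; log2 fold change 1.20 ± 0.19 SE, edgeR adjusted p = 0.0154). Msr1, a scavenger receptor gene of macrophages, rose by 1.75 ± 0.42 on the log2 scale (adjusted p = 0.0492), from 0.572 to 1.55 CPM in water to 1.04 to 7.32 in α-KG. Lrp8, which encodes a receptor that the Mylip ligase targets, was at -0.06 ± 0.12 (edgeR adjusted p = 0.770), and Vldlr, which encodes another, was below the filter. The scavenger receptor gene Cd36 was at -0.22 ± 0.38 (adjusted p = 0.722).

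In the remaining lists, 1 of 10 lipase genes rose, as did 2 of 17 genes of cholesterol handling inside the cell. So did 1 of 11 other ABC lipid transporter genes, and none fell in these lists. Over all genes tested, 2.39% were called higher and 0.344% lower. With so few called lower anywhere, the lack of a falling gene in lists of this size says little. Lmf1, which encodes a factor that matures lipoprotein lipase in the endoplasmic reticulum, was at 3.95 ± 0.596 and 6.87 ± 1.73 CPM (SD, n = 5; log2 fold change 0.80 ± 0.19 SE, edgeR adjusted p = 0.0459). Soat1, which esterifies cholesterol for storage, went from 23.7 ± 3.61 to 42.8 ± 9.91 CPM (0.85 ± 0.17, adjusted p = 0.0278). Npc2, which carries cholesterol out of lysosomes, went from 40.8 ± 1.70 to 56.9 ± 5.30 CPM (0.48 ± 0.10, adjusted p = 0.0355), and both genes had groups that did not overlap. Abca9, an ABC transporter gene, went from 2.34 ± 0.676 to 6.76 ± 2.12 CPM without overlap (1.52 ± 0.26, adjusted p = 0.0172). Against these, the transporter genes Abcg2 and Abcg4 were at -1.07 ± 0.42 and -0.98 ± 0.44 (adjusted p = 0.135 and 0.174), each with an α-KG library, at 7.35 and 8.59 CPM, far below the lowest in water, at 44.0 and 56.3 CPM. Each of the called genes named from these lists lost its call when water 1, 2 or 4 or α-KG 4 was left out. In those settings no gene tested was called at all. With all libraries kept, Arl4c, Lmf1 and Msr1 also lost theirs with RLE scaling (adjusted p = 0.0583, 0.0538 and 0.0549), with scaling that left out structural RNAs and histone genes (0.0526, 0.0512 and 0.0512) and with limma voom (0.0588, 0.0627 and 0.0983). With no filter on low counts, Npc2 and Msr1 did (0.0985 and 0.0666).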

How the data were processed

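Bone marrow RNA was depleted of ribosomal RNA by RNase H and sequenced on an Illumina instrument, per the labels' protocols. Per the submitters' processing notes, bcl2fastq and DRAGEN were used with the build GRCm38. Annotation, quantifier and strandedness are not stated in the sources used here. The deposited values are expected counts per gene, unscaled between libraries, of which 10.3% are not whole. They were rounded, filtered with filterByExpr (minimum count 10, minimum total 15), which kept 15126 of 32256 genes with a count, and tested with edgeR 4.0.16 (TMM, robust quasi-likelihood F test, two-sided, Benjamini-Hochberg over all genes tested, threshold 0.05) in R 4.3.3. Standard errors were taken from F, as |log2 fold change|/√F. CPM are counts scaled to 1e+06 after TMM. Marker lists were compared by mean log2(CPM + 1) with exact permutation over 252 assignments, using Python 3.11.15 and scipy 1.17.1.

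Named genes were the 8 members, called genes of each list (at most 4, otherwise the 2 with the smallest p) and the 10 genes most like Apoe whose average log2 CPM was 0 or more; other genes named in the lists were chosen after their values were seen. The members and lists were chosen with earlier results of these data known. Alternatives used RLE scaling, other filters, DESeq2 1.42.0, limma 3.58.1 voom, covariates and libraries left out. The test was checked on simulated counts, where edgeR called 6.67% of 150 genes set to change 1.5-fold and 56.7% of 150 set to change 2-fold. Of the calls, 5.72% were false. A gene that was not called may thus still differ between the groups. Each simulated gene was drawn on its own, without variation shared between the genes of a library. Both the shares recovered and the share of false calls may therefore differ in the real libraries. Gene positions and exon lengths are from GENCODE on GRCm38, and promoters from RefSeq (GRCm38.p6). Some genes of the lists are not reported here by name, though the counts include them.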

Additional observations from a re-analysis of the deposited data

Results flagged for a closer look

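Pltp in water 3, at 6.25 CPM, stood apart from the other 4 water libraries, at 2.999 to 3.89 CPM, by a gap that was large for the range of the group. It was the 1 such value among 16 groups of 5 examined (8 genes in 2 groups), and chance flags about 1 group in 20. Water 3 was also the water library with the highest Apoe, Abca1, Abcg1 and Lpl and the highest monocyte and macrophage means.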

How the results depend on the processing

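No paired analysis was possible because water and α-KG libraries share no replicate number in their labels. The number of genes called, 413 with edgeR, was 1657 with DESeq2 (969 higher, 688 lower) and 273 with limma voom, and ran from 0 to 2683 with 1 library left out; where it was 0, 3232 to 3672 genes had an unadjusted p under 0.05 with edgeR. It was 0 with the monocyte or macrophage list mean as a covariate, where 145 and 175 genes had an unadjusted p under 0.05; DESeq2 was not run with a covariate or a library left out. Of the 8 members, 1 was called with all libraries, 2 with scaling that left out structural RNAs and histone genes and 3 with no filter. The count was 4 with a filter of CPM of at least 1 in 5 libraries, 4 with DESeq2 and 0 with either covariate (none at an unadjusted p under 0.05). It was 0 to 5 with 1 library left out. Over all genes tested, 365 of 15126 were called with the scaling without structural RNAs and histone genes. The counts were 582 of 32183 with no filter and 436 of 13216 with the CPM filter.

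Signs turned only with a covariate, and in those fits the standard error of every member was larger. For Abca1 it was 0.44 with the monocyte mean, against 0.22 without a covariate. Both means moved with the groups, so these fits cannot tell the covariate and α-KG apart. With the monocyte mean, log2 fold changes were -0.13 for Abca1, -0.0655 for Abcg1, -0.18 for Lpl, -0.30 for Pltp, -0.85 for Apoc2, -0.0594 for Arl4c, -0.23 for Bcl3, -0.0195 for Ccr2, -0.18 for Cd68 and -0.44 for Msr1. With the macrophage mean they were -0.0158 for Abca1, -0.0782 for Abcg1, -0.37 for Pltp, -0.13 for Apoc2, -0.0782 for Arl4c, -0.12 for Bcl3 and -0.0599 for Cd68. Apoe stayed above 0 in all 18 alternatives and was called in 11. Nr1h3 was called in 5, Lpl in 4 and Mylip in 6, and Nr1h3, Nr1h2 and Mylip kept their sign in all 18. Ccr2 is in the monocyte list and Cd68 in the macrophage list, and the cause of the changes was not tested. Depth limits Nr1h3, with 9 counts in water 5.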
